A study of Homo sapiens with 6 samples.

Results

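The genes described here are 85 genes with a LINC symbol, the name given to intergenic long noncoding RNAs, in the lung adenocarcinoma line H1975 and its osimertinib-resistant derivative. Genes were selected on their level: the symbol had to be LINC followed by digits, and the mean had to reach 1 FPKM in the 3 H1975_OR libraries or in the 3 H1975 libraries. FPKM is a count of sequenced fragments divided by the length of the transcript and by the depth of the library. The rule was met by 85 of the 614 LINC genes among 57905 gene IDs, and 529 LINC genes did not meet it, 283 of them listed at 0 in all 6 libraries. Because the rule uses measured levels, the 57 members that reached 1 FPKM in both groups are kept apart from the other 28. Of these 28, 20 reached 1 FPKM in H1975_OR only and 8 in H1975 only, so they had to differ between the groups, and they are described without a test.

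H1975_OR is the osimertinib-resistant line. It was cultured with osimertinib, a drug that blocks mutant EGFR, at 1 µM. H1975 is the parental line, an EGFR-mutant lung adenocarcinoma line grown without the drug. Both were grown in RPMI-1640 with serum, total RNA was taken with Trizol, and an mRNA kit was used for the libraries. The design names 3 biological replicates per group. H1975_OR is the only resistant derivative, and the drug was present in every resistant culture, so drug and resistance cannot be told apart.

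Long noncoding RNAs are transcripts that are spliced and often polyadenylated like mRNA but are not known to encode a long protein. Some act in the nucleus near the gene that makes them, on chromatin or by the act of transcription itself, and others act in the cytoplasm by binding proteins, mRNAs or microRNAs. Their levels are usually lower and more tied to a cell type than those of mRNAs, and several are known for abnormal levels in lung adenocarcinoma. Some LINC symbols were later replaced when a small protein, a host gene of small RNAs or a promoter shared with a coding gene was recognised.

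Estimated mapped sequence was 9.72 to 11.5 gigabases in H1975_OR libraries and 10.8 to 14.7 in H1975 libraries. The 7 tested epithelial marker genes of 10 found were all lower in H1975_OR (limma, FDR 0.05), and the list summed to 914.7 to 992 FPKM in H1975_OR and 2979 to 3491 FPKM in H1975. The lung lineage factor NKX2-1 was listed at 0 in every H1975_OR library, while the epithelial keratin KRT8 was at 366, 405 and 381 FPKM there. Of 5 tested mesenchymal markers, 3 were higher and 2 lower, and the list summed to 677 to 762 FPKM in H1975_OR and 204 to 247 FPKM in H1975. VIM made up most of the sum in H1975_OR, with a mean of 685 FPKM, against 124 FPKM in H1975, and ZEB1 and ZEB2 were also higher. FN1 was lower, at 8.97 FPKM in H1975_OR and 95.7 FPKM in H1975, as was SNAI2, at 1.02 and 2.78 FPKM. Fibroblast markers summed to 18.1 to 22.0 FPKM in H1975_OR and 2.41 to 2.95 FPKM in H1975, with DCN listed at 0 in all libraries. COL1A1 and PDGFRB made up most of the H1975_OR sum, with means of 15.8 and 3.94 FPKM, and were higher. COL1A2, COL3A1, THY1 and LUM averaged under 1 FPKM in both groups. Leukocyte markers summed to 70.7 to 80.6 FPKM in H1975_OR and 28.8 to 32.2 FPKM in H1975, with CD3E listed at 0 in all libraries. CD68 and CD14 made up most of that sum and were higher, while CSF1R was lower, at 0.373 FPKM in H1975_OR and 4.54 FPKM in H1975. The part of these markers in the results below was not tested, and in bulk RNA fewer cells of a type and less RNA per cell cannot be told apart.

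Promoter windows of 300 bases, 250 before and 50 after the annotated start, were available for 68 of the 85 members in RefSeq (GRCh38.p14). The windows of the pair of members with the largest increases on the log2(FPKM + 1) scale are shown. LINC01021, now named PURPL, lies on chr5:27472042-27472341, plus strand. Capitals mark the annotated start and the bases after it, beginning at base 251 of the window. This window held 0 CpG dinucleotides, against 33 in that of LINC00882, beside a median of 20 over the member windows and 14 over the 35116 RefSeq windows.

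LINC01021: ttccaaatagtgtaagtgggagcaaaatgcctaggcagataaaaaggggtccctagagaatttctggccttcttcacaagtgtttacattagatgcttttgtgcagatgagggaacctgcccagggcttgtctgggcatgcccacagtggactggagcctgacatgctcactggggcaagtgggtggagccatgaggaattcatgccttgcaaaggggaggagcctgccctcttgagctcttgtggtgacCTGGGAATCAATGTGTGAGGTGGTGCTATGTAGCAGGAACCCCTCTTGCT

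LINC00882 lies on chr3:107240589-107240888, minus strand. Capitals, beginning at base 197, mark the bases between its start and the start of LINC00883 on the opposite strand, both included. The starts of this divergent pair are 54 bases apart in RefSeq and 51 bases apart in the deposited coordinates.

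LINC00882: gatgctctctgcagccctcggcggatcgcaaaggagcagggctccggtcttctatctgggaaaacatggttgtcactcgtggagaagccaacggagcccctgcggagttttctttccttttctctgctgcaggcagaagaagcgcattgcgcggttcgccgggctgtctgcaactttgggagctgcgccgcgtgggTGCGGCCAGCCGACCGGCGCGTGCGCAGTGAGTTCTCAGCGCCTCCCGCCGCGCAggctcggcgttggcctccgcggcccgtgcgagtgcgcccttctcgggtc

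Most members were low. The mean of the higher group lay between 1 and 2 FPKM in 30 members, between 2 and 5 in 25, between 5 and 10 in 16 and at 10 or more in 14. Its median was 3.11 FPKM over the members and 13.1 FPKM over the 11911 coding genes tested. Together the 85 members summed to 498, 515 and 541 FPKM in H1975_OR and 460, 453 and 451 FPKM in H1975, which is 0.117% to 0.126% of all FPKM in H1975_OR libraries and 0.103% in each H1975 library. The 5 members with the highest mean in either group were LINC00657, LINC00152, LINC00998, LINC00493 and LINC01021. They took 45.1% to 46.8% of the members' FPKM in H1975_OR and 33.2% to 34.5% in H1975. LINC01021 entered this set through H1975_OR and averaged 0.425 FPKM in H1975. The set is therefore not the highest 5 of the H1975 libraries, and the 2 ranges differ partly through that choice. The lowest deposited coverage of a member in its higher group had a median of 12.8, and it was under 1 for 7 members. This value did not follow FPKM. The lowest was 1.72 for LINC00511 in H1975, at 23.8 to 24.9 FPKM, and 8.88 for LINC01023 in H1975_OR, at 0.835 to 2.16 FPKM. A low value therefore does not show that few reads covered the transcript.

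Among the 57 members that reached 1 FPKM in both groups, 23 were higher and 16 lower in H1975_OR, and 18 did not pass an FDR of 0.05 (limma on log2(FPKM + 1), adjusted over all 14083 genes tested). That is 68.4% called, beside 74.7% of the 12111 genes of any kind that did so. By direction, 40.4% of members were higher, beside 38.3% of those genes, and 28.1% were lower, beside 36.4%. The median log2 change was 0.04 over the members and 0.01 over those genes, and the median absolute change 0.37 and 0.40. Called log2 changes reached 1 in size for 2 members upward (background 7.59%) and 4 downward (background 6.47%). The groups did not overlap for 40 of the 57 members (background 76.8%). These shares are near the background or below it.

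**Figure D1:**
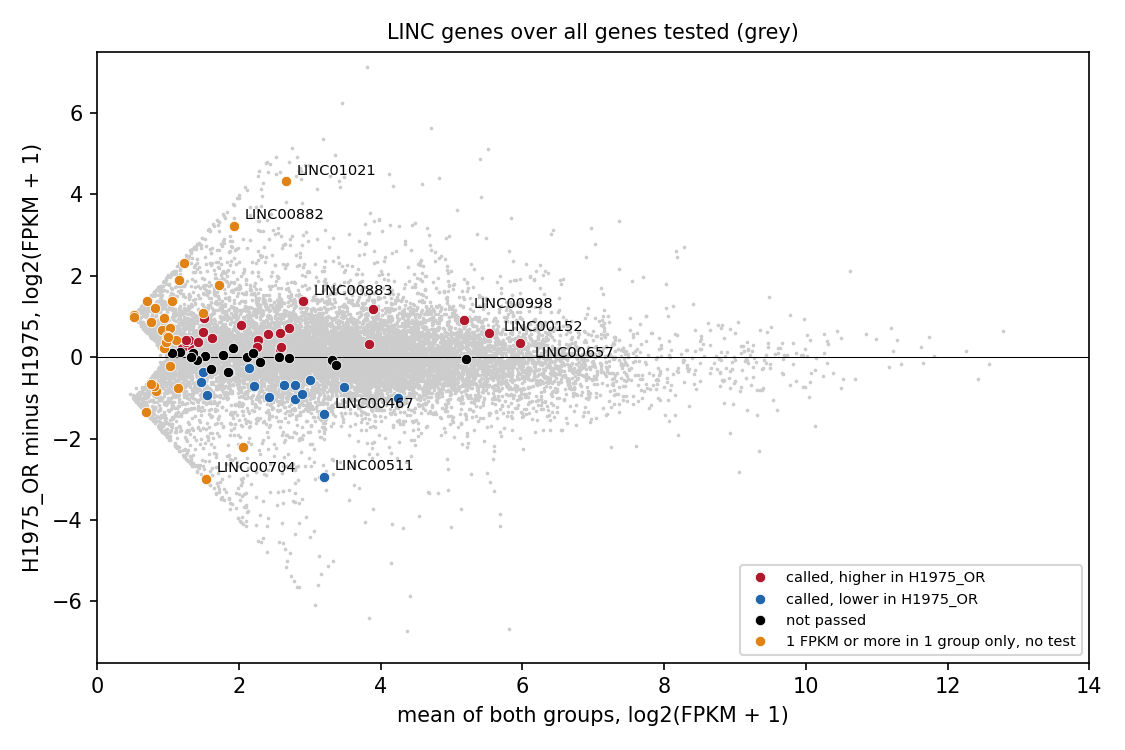
Each point is a gene. The horizontal axis is the mean of both groups and the vertical axis the difference H1975_OR minus H1975, both in log2(FPKM + 1). Grey points are all genes tested and coloured points the 85 LINC genes. The LINC genes lie at the low end of the levels, with LINC01021 at 4.32 and LINC00511 at -2.93 on the vertical axis.

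The most abundant member was LINC00657, now NORAD, a cytoplasmic RNA known to bind Pumilio proteins (20:34633544-34638882, GRCh37, minus strand). It had 71.8, 65.1 and 73.1 FPKM in H1975_OR, against 55.0, 55.6 and 53.2 FPKM in H1975. All 3 H1975_OR libraries were above the H1975 libraries, and the difference passed (log2 change 0.35 ± 0.0635 SE, limma adjusted p = 0.00032). LINC00152, now CYTOR, named as a regulator of the cytoskeleton (2:87754887-87906324), had 52.2, 53.9 and 61.2 FPKM in H1975_OR, against 38.9, 33.8 and 38.0 FPKM in H1975. The groups did not overlap and CYTOR rose (0.58 ± 0.0769, limma adjusted p = 2.5e-05). Matches to MIR4435-2HG at 98% identity or more cover 30.0% of its longest transcript, the highest at 99.25%, so reads of the pair may be shared. LINC00963 (9:132245730-132275947) had 13.4, 15.1 and 16.5 FPKM in H1975_OR, against 12.8, 11.5 and 10.8 FPKM in H1975. Its groups lay next to each other without overlap (0.33 ± 0.0843, limma adjusted p = 0.0036).

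LINC00883, now DUBR, showed the largest called increase (3:106959539-107045811, plus strand). DUBR is known from mouse muscle differentiation, where it acts near Dppa2. Its level was 10.7, 10.95 and 11.5 FPKM in H1975_OR, against 3.75, 3.46 and 3.69 FPKM in H1975, a 3.05-fold ratio of the group means. The libraries of a group lay within 1 FPKM of each other and the groups were far apart (1.38 ± 0.0635, limma adjusted p = 2.5e-09). LINC00662 (19:28175488-28284848, minus strand), reported as raised in several carcinomas, had 19.7, 22.5 and 22.2 FPKM in H1975_OR, against 9.35, 8.76 and 8.37 FPKM in H1975. The groups did not overlap (1.19 ± 0.0690, limma adjusted p = 1.8e-08). A further 21 members rose by less than 1 on the log2 scale, among them LINC00938 with 0.95, LINC00476 with 0.80, LINC00339 with 0.71 and LINC00460 with 0.57.

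LINC00511, a spliced RNA with raised levels in many carcinomas, lung among them, showed the largest called decrease (17:70319264-70636611, minus strand). It was at 2.003, 2.45 and 2.57 FPKM in H1975_OR, against 24.6, 24.9 and 23.8 FPKM in H1975. Its mean was 10.4-fold lower in H1975_OR (log2 change -2.93 ± 0.0740, limma adjusted p = 1.7e-11), while the 6 tested genes within 1 Mb had a median change of 0.05. LINC00467 (1:211556145-211605878, plus strand) had 4.53, 4.91 and 4.501 FPKM in H1975_OR, against 14.1, 13.2 and 14.5 FPKM in H1975. The groups did not overlap (-1.40 ± 0.0644, limma adjusted p = 2.4e-09), and the 9 tested genes within 1 Mb had a median of -0.80. LINC00665 (19:36803969-36822620, minus strand) was at 12.3, 12.6 and 12.3 FPKM in H1975_OR, against 25.9, 26.7 and 24.9 FPKM in H1975. It had the smallest standard error of the 6 members with a called change of 1 or more (-1.001 ± 0.0570, limma adjusted p = 1.5e-08).

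LINC01106 (2:111132715-111142019) was also lower, at 3.90, 3.55 and 4.03 FPKM in H1975_OR, against 8.74, 9.07 and 8.71 FPKM in H1975 (-1.03 ± 0.0659, limma adjusted p = 4.3e-08). Matches to LINC01123 at 98% identity or more cover 96.15% of its longest transcript, the highest at 99.51%. LINC01123 was lower by a like amount (-0.92). The counting may have split their reads, so they are not independent. The other members lower by more than 0.7 were LINC00263 (-0.99), LINC00265 (-0.92), LINC00969 (-0.74) and LINC00346 (-0.70).

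**Figure D2:**
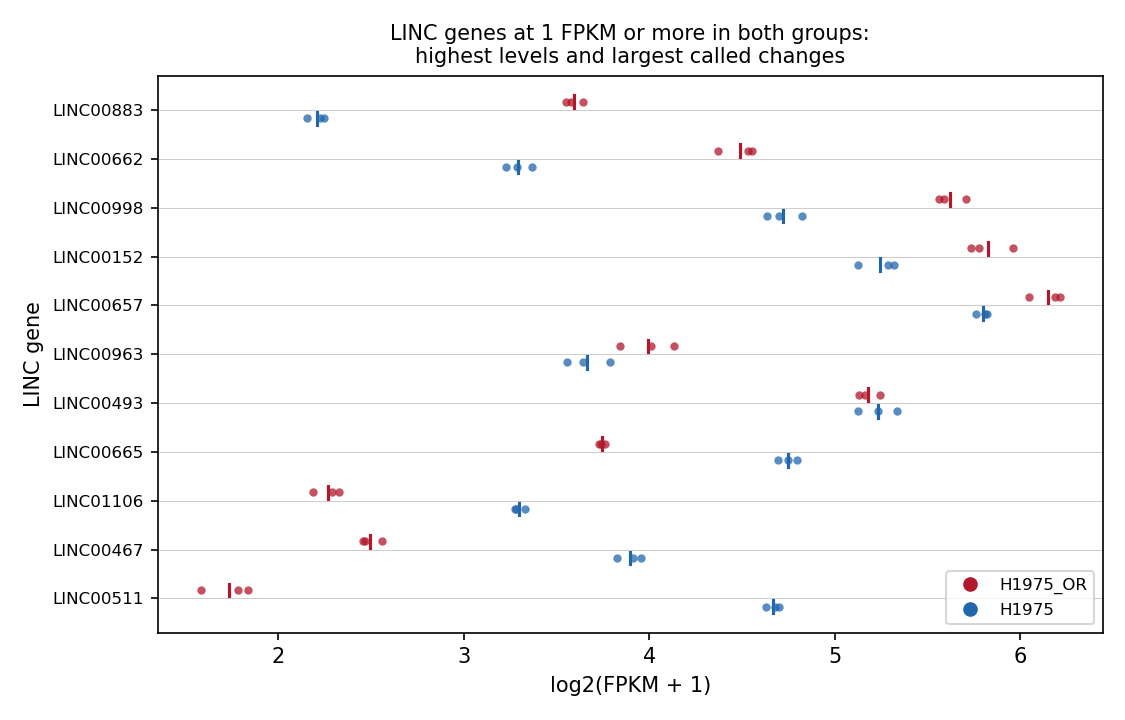
Levels in log2(FPKM + 1) of the LINC genes that reached 1 FPKM in both groups and had the highest means or a called change of 1 or more. Points are libraries, 3 per group, and vertical ticks are group means. In LINC00883 and LINC00662 the H1975_OR points lie right of the H1975 points, in LINC00511, LINC00467, LINC01106 and LINC00665 left of them, and in LINC00493 they overlap.

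Of the 85 members, 7 are typed as protein-coding in GENCODE v29. LINC00998, now SMIM30, a small membrane protein (7:112756773-112758668), had 47.1, 51.2 and 46.2 FPKM in H1975_OR, against 25.0, 23.8 and 27.4 FPKM in H1975. Every H1975_OR library was above every H1975 library (0.90 ± 0.0689, limma adjusted p = 2.1e-07). LINC00493, now SMIM26, encodes a mitochondrial small protein (20:18548064-18550207), and had 34.8, 36.9 and 34.1 FPKM in H1975_OR, against 39.4, 36.6 and 33.8 FPKM in H1975. Its groups overlapped and no difference passed (-0.05 ± 0.0684, limma adjusted p = 0.50).

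LINC00116, now MTLN, which encodes mitoregulin of the mitochondrial membranes, was at 4.94 ± 0.255 FPKM in H1975_OR and 4.90 ± 0.0891 FPKM in H1975 (SD, n = 3 each). The groups overlapped (log2 change 0.01 ± 0.0655, limma adjusted p = 0.91). LINC00984, now INAFM2, was at 5.57 ± 0.389 FPKM in H1975_OR and 4.52 ± 0.363 FPKM in H1975, and rose (0.25 ± 0.0752, limma adjusted p = 0.0092). Without the 7 typed as coding, 19 of 50 tested members were higher and 16 lower.

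LINC01021 (5:27472399-27496508, plus strand), PURPL, was the member with the largest difference between the groups on the log2(FPKM + 1) scale. It was at 27.2, 25.0 and 30.2 FPKM in H1975_OR, against 0.355, 0.423 and 0.495 FPKM in H1975. The means differed 64.7-fold, or 4.32 on that scale, and the groups were far apart, which the choice of members fixes in part. No tested gene lay within 1 Mb of it.

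LINC00882 (3:106555658-106959488, minus strand) forms the divergent pair with DUBR whose shared starts are shown above. It was at 9.25, 13.2 and 9.96 FPKM in H1975_OR, against 0.300, 0.285 and 0.1598 FPKM in H1975. The H1975_OR libraries lay well above the H1975 libraries, and both members of the pair were higher. The means of LINC00882 differed 43.5-fold, beside 3.05-fold for DUBR. Its span overlaps 13 other annotated genes, so part of its reads may belong to them, which was not tested.

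Other members reached 1 FPKM in H1975_OR only. LINC00520 was at 4.51, 3.99 and 4.07 FPKM in H1975_OR, against 0.0575, 0.0428 and 0.0448 FPKM in H1975. LINC00944 was at 5.44, 4.55 and 5.32 FPKM in H1975_OR, against 0.663, 0.720 and 0.989 FPKM in H1975. In both the H1975_OR libraries were all above the H1975 libraries, though LINC00944 was present in both lines. LINC01151 was at 2.97, 3.16 and 3.75 FPKM in H1975_OR, against 0.226, 0.135 and 0.0973 FPKM in H1975. LINC00472 was at 2.35, 2.29 and 2.40 FPKM in H1975_OR, against 0.255, 0.350 and 0.241 FPKM in H1975. LINC00472 is reported as a tumour suppressor in breast cancer. LINC00917 was at 1.30, 1.80 and 1.82 FPKM in H1975_OR, and was listed at 0 in 2 of the 3 H1975 libraries, with 0.0162 FPKM in the other.

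LINC00999 was at 2.90, 2.93 and 3.38 FPKM in H1975_OR, against 0.885, 0.907 and 1.01 FPKM in H1975. Its log2 change was 1.07, beside a median of 1.39 over the 6 tested genes within 1 Mb. LINC00240 averaged 1.68 ± 0.121 FPKM in H1975_OR and 0.163 ± 0.0288 FPKM in H1975, and LINC00936 averaged 1.67 ± 0.0902 FPKM in H1975_OR and 0.378 ± 0.0680 FPKM in H1975 (SD, n = 3 each). The groups did not overlap in any of these 3. LINC01085 averaged 1.01 ± 0.102 FPKM in H1975_OR and 0.0182 ± 0.0127 FPKM in H1975. LINC00996 averaged 1.05 ± 0.254 FPKM in H1975_OR and was listed at 0 in 2 of 3 H1975 libraries. Of the 20 members, 4 were under 0.1 FPKM in H1975 and 8 were at 0.5 FPKM or more there. The groups overlapped in 1 of the 20, LINC01023, whose coefficient of variation was 47.5% over the H1975_OR libraries. Among all genes tested, 7.54% were at 1 FPKM or more in H1975_OR only and 6.46% in H1975 only, beside 20 and 8 of the 85 members. The members lay lower, with a median higher group mean of 3.11 FPKM, against 13.1 FPKM for coding genes tested. Genes near the threshold can fall on 1 side of it through a small difference. No background of like level was taken, so the shares are not compared.

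Of the 8 members at 1 FPKM or more in H1975 only, LINC00704, now MANCR, a mitotically associated RNA (10:4692377-4720346), was at 0.0188, 0.0551 and 0.0283 FPKM in H1975_OR, against 7.09, 8.85 and 5.84 FPKM in H1975. LINC00702, whose start lies 434242 bases away, did not pass (0.13 ± 0.0752, limma adjusted p = 0.12). LINC00973 (3:98699902-98701940) was at 0.844, 1.37 and 0.648 FPKM in H1975_OR, against 8.61, 8.61 and 6.67 FPKM in H1975. In both the H1975_OR libraries lay below the H1975 libraries. LINC00525 was listed at 0 in 2 of 3 H1975_OR libraries, with 0.0138 FPKM in the other, against 1.71, 1.46 and 1.58 FPKM in H1975.

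The remaining members at 1 FPKM or more in H1975 only were near the threshold. LINC01004 averaged 0.716 ± 0.270 FPKM in H1975_OR and 1.87 ± 0.186 FPKM in H1975, and LINC00842 averaged 0.328 ± 0.0470 FPKM in H1975_OR and 1.35 ± 0.0695 FPKM in H1975. LINC01002 averaged 0.365 ± 0.0344 FPKM in H1975_OR and 1.23 ± 0.268 FPKM in H1975, and LINC01119 averaged 0.340 ± 0.0444 FPKM in H1975_OR and 1.12 ± 0.171 FPKM in H1975. LINC00319 averaged 0.894 ± 0.258 FPKM in H1975_OR and 1.20 ± 0.118 FPKM in H1975 (SD, n = 3 each), and was the only one of the 8 whose groups overlapped. Its sequence has a near-identical copy. Just above the threshold stood LINC01085, LINC00996 and LINC00641, the last at 1.08 FPKM in H1975_OR and 0.788 FPKM in H1975. Just below it were LINC00880 with 0.0519 FPKM in H1975_OR and 0.935 FPKM in H1975, LINC00174 with 0.930 FPKM in H1975_OR and 0.698 FPKM in H1975, and LINC00482 with 0.105 FPKM in H1975_OR and 0.915 FPKM in H1975.

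**Figure D3:**
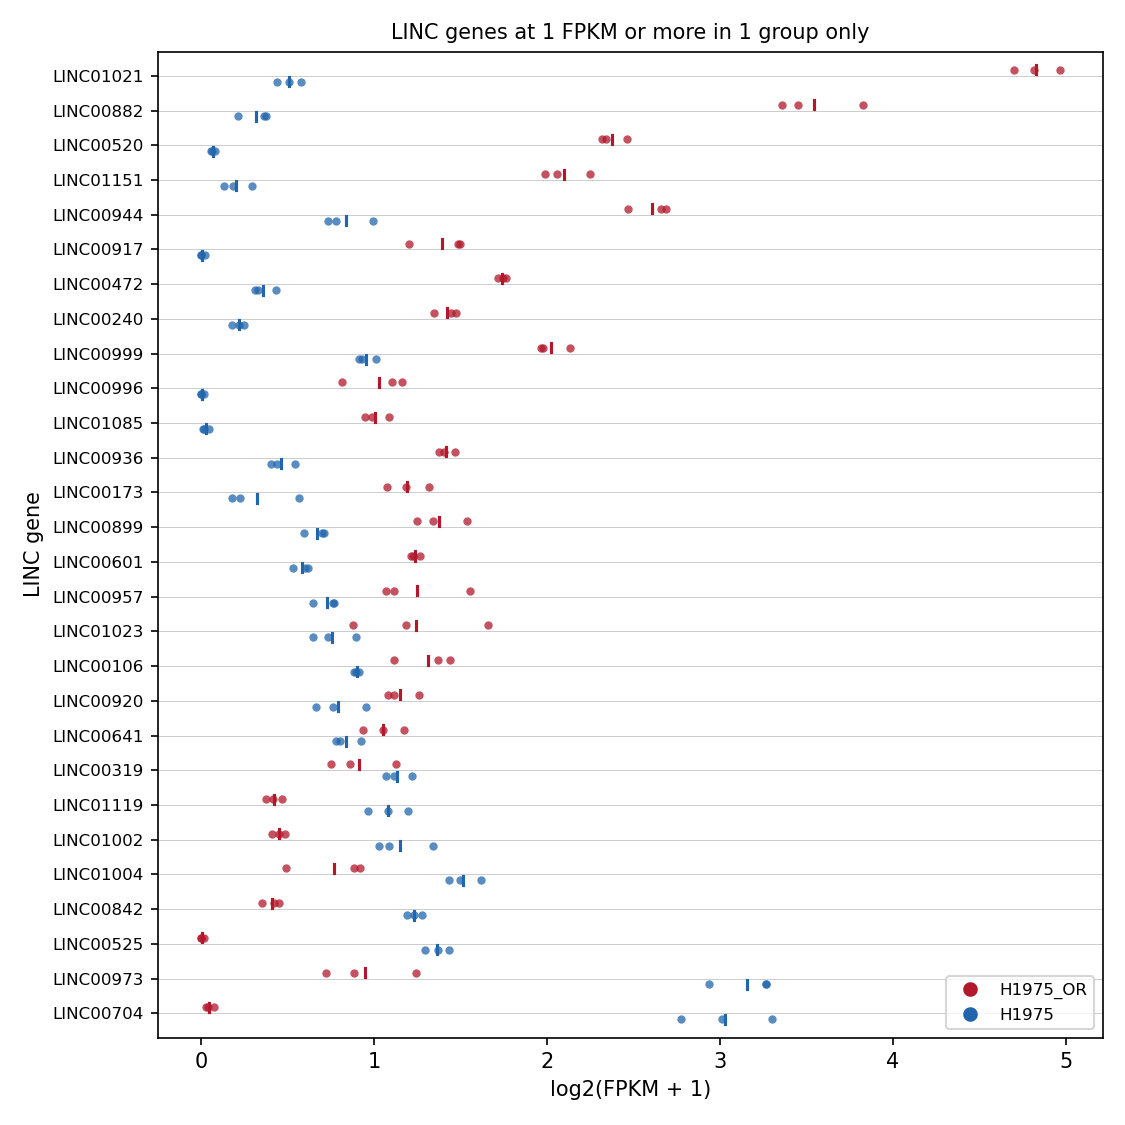
Levels in log2(FPKM + 1) of the 28 LINC genes at 1 FPKM or more in 1 group only. Points are libraries, 3 per group, and vertical ticks are group means. The 20 genes at the top were chosen for H1975_OR, with LINC01021 and LINC00882 farthest to the right, and the 8 at the bottom for H1975. The groups overlap in LINC01023 and LINC00319.

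Some members hardly moved. LINC00909 was at 1.53 ± 0.390 FPKM in H1975_OR and 1.52 ± 0.311 FPKM in H1975, with a log2 change of 0.00 ± 0.127 SE (limma adjusted p = 0.9993). LINC00342 was at 3.31 ± 0.193 FPKM in H1975_OR and 3.32 ± 0.432 FPKM in H1975 (0.00 ± 0.0865 SE). LINC00680 and LINC00624 had log2 changes of 0.02 ± 0.0923 and -0.02 ± 0.0886 SE. The libraries of both groups overlapped in these 4, and a p that misses the threshold does not show that the levels are the same. Over the members tested, the median coefficient of variation between replicates was 10.1% in H1975_OR and 7.77% in H1975. It reached 40.4% for LINC00313 in H1975, where 1 library was at 4.69 FPKM and the others at 2.42 and 2.49 FPKM.

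Members were set beside the coding gene next to them in the deposited coordinates. The span overlapped a coding gene for 11 members, starts lay on opposite strands within 5 kb for 7, the nearest start lay within 50 kb for 31, and 36 had none. In all, 35 members had a tested neighbour, 8 of them at 1 FPKM or more in 1 group only, so that the rule fixed their direction. Among the other 27, 20 changed in the same direction as the neighbour, whether or not either passed (Pearson r 0.45, Spearman rho 0.36 over 27 pairs, which share libraries and some reads). Of these, 8 of 11 with an overlapping span or opposite starts and 12 of 16 with only a nearest start went the same way. With the 8 included, 27 of 35 did (r 0.55, rho 0.46). Of the 35 neighbours, 17 were higher and 12 lower.

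LINC00263, now OLMALINC (10:102133372-102143125), had 2.71, 2.45 and 3.28 FPKM in H1975_OR, against 7.64, 7.09 and 5.19 FPKM in H1975 (-0.99 ± 0.128, limma adjusted p = 6.1e-05). SCD, the desaturase that makes monounsaturated fatty acids, starts 26491 bases away, and averaged 70.2 FPKM in H1975_OR and 216 FPKM in H1975 (-1.60 ± 0.0777, limma adjusted p = 3.9e-09). Both fell, and the OLMALINC libraries of the groups did not overlap. LINC00525, above 1 FPKM in H1975 only, overlaps HUS1, a subunit of a DNA damage checkpoint clamp, which averaged 6.29 FPKM in H1975_OR and 15.8 FPKM in H1975 (-1.21 ± 0.0598, limma adjusted p = 4.7e-09). LINC00936, above 1 FPKM in H1975_OR only, starts 341 bases from ATP2B1, a plasma membrane calcium pump, which averaged 39.6 FPKM in H1975_OR and 18.4 FPKM in H1975 (1.06 ± 0.0557, limma adjusted p = 7.5e-09). LINC00938 starts 1890 bases from ARID2, a subunit of a SWI/SNF complex, and both rose (0.95 for LINC00938 and 0.68 for ARID2). LINC00476 and ERCC6L2 start 276 bases apart and rose by 0.80 and 0.38, and LINC01125 and ACTR1B start 110 bases apart and rose by 0.43 and 0.48.

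Other pairs went in opposite directions. LINC01137 starts 141 bases from ZC3H12A, an RNase that degrades inflammatory mRNAs, and the changes were -0.36 and 0.69. LINC00847 fell (-0.56) while MGAT1, an enzyme of N-glycan synthesis, rose (0.92). NORAD rose (0.35) while EPB41L1, a membrane skeleton protein whose start is 40544 bases away, fell (-1.17).

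**Figure D4:**
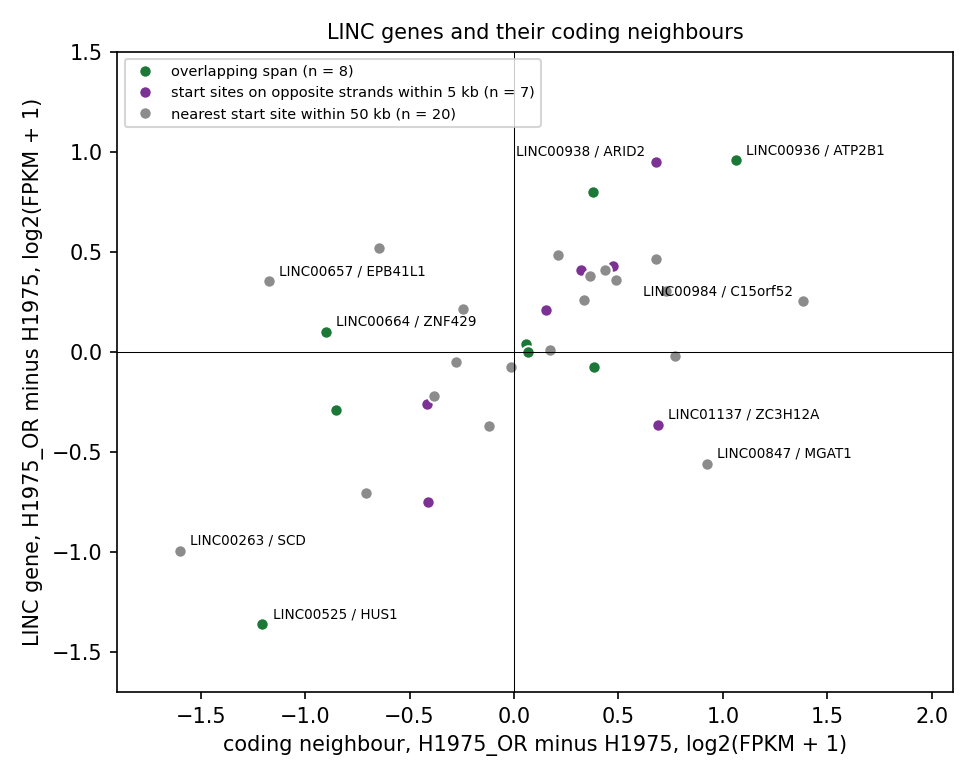
Each point is a LINC gene with a tested coding neighbour. The horizontal axis is the change of the neighbour and the vertical axis the change of the LINC gene, H1975_OR minus H1975 in log2(FPKM + 1). The quadrants of equal sign hold 27 of 35 points, or 20 of the 27 genes that reached 1 FPKM in both groups, with LINC00263 and SCD at the lower left, LINC00936 and ATP2B1 at the upper right, and LINC01137 and LINC00847 at the lower right.

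Members were also read beside the genes of their chromosome, leaving out those at 1 FPKM in 1 group only, whose direction the rule fixed. A change below 0 was found for 3 of 4 members on chromosome 7, where the 729 genes tested had a median of -0.51. It was found for 3 of 5 on chromosome 10 (median of all genes 0.09), 3 of 5 on chromosome 3 (-0.07), 3 of 6 on chromosome 2 (-0.17) and 1 of 2 on chromosome 13 (-0.41). These counts are small, and no difference between chromosomes was tested. They include changes that did not pass, such as LINC00843 (-0.07) on chromosome 10 and LINC00342 (-0.0009) on chromosome 2. On chromosome 2 they also include LINC01106 and LINC01123, which are not independent. On chromosome 7, LINC00265 (7:39773231-39832691) was at 1.23, 1.05 and 1.07 FPKM in H1975_OR, against 2.86, 3.09 and 3.10 FPKM in H1975. The groups did not overlap and it fell (-0.92 ± 0.0748, limma adjusted p = 3.4e-07), while LINC00998 on the same chromosome rose. On chromosome 13, LINC00346 was lower (-0.70) and LINC00460 higher (0.57). Off chromosome 7, 14 of 53 tested members were lower.

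Some members are less certain. The spans of 49 of the 85 overlapped another annotated gene, and 11 overlapped a coding gene, 4 of them on the same strand. The sources used here do not say whether the counting used strand. At least 98% identity to another gene over 50% or more of the longest transcript was found for 9 members and not for 70. The other 6 have no GENCODE v29 entry and were not searched. Of the 46 tested members that were searched and had no such copy, 19 were higher and 13 lower. Of the 24 tested members with no overlapping gene, 11 were higher and 6 lower.

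The windows of LINC00704, LINC00346, LINC00152 and LINC00460 each held the AP-1 motif TGANTCA at 2 places. The first pair was lower in H1975_OR and the last pair higher. This motif was present in 11 of 68 member windows (16.2%) and in 7.71% of all RefSeq windows. The other motifs searched on both strands were the CAGGTG box bound by ZEB1, in 22.1% of member windows and 20.6% of all, the TEAD motif GGAATG, in 10.3% of member windows and 14.03% of all, TATAAA, in 7.35% of member windows and 11.5% of all, and CCAAT, in 36.8% of member windows and 34.6% of all. These are matches of letters and say nothing of binding.

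Other named long noncoding RNAs outside the LINC symbols were listed for comparison, and 48 of 50 were found and 33 tested. Of these 33, 19 were higher and 10 lower, with a median of 0.29, beside 0.01 over genes of any kind that reached 1 FPKM in both groups, of which 38.3% were higher and 36.4% lower. UCA1, a carcinoma-associated RNA, was at 11.5 ± 3.21 FPKM in H1975_OR and 214.5 ± 4.29 FPKM in H1975 (-4.14 ± 0.182, limma adjusted p = 1.5e-06). DANCR was at 62.3 ± 3.78 FPKM in H1975_OR and 22.4 ± 4.33 FPKM in H1975 (1.45 ± 0.130). H19, an imprinted RNA, was at 4.38 ± 0.398 FPKM in H1975_OR and 1.25 ± 0.163 FPKM in H1975 (SD, n = 3 each). MALAT1 and NEAT1, nuclear RNAs, rose by 0.72 and 0.99, TUG1 rose by 0.29, and GAS5, a host gene of small nucleolar RNAs, fell by 0.32. LUCAT1 and MIR22HG rose by 1.13 and 1.10, and DLEU2 fell by 1.09. MEG3 was at or near 0 in both lines. It was listed at 0 in all 3 H1975_OR libraries and in 1 of 3 H1975 libraries, with 0.00092 and 0.0079 FPKM in the others.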

How the data were processed

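RNA sequencing was made of 6 libraries, 3 per group, with groups taken from the sample titles. The authors deposited 1 file per library with FPKM, TPM and read coverage per gene, per the file headers. Deposited FPKM is scaled to transcript length and mapped total, deposited TPM was FPKM times 2.25 to 2.38 per library, and deposited coverage (signal) was used only to describe depth. GRCh37 and DESeq are named in the submitters' processing notes. The sources used here do not give the aligner, quantification tool, annotation release or use of strand. Depth in reads is unknown. The estimate of mapped sequence is the highest ratio of coverage to FPKM shared by many genes.

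FPKM was summed over rows of a gene ID. Genes with a mean of 1 FPKM in either group, 14083 in all, entered a two-sided test on log2(FPKM + 1) by limma 3.58.1 (R 4.3.3) with trend and robust moderation and Benjamini-Hochberg adjustment. Changes are H1975_OR minus H1975, and the pseudocount of 1 understates those of low genes. The fit was checked on simulated data. Gene types by ID came from GENCODE v29, copies from blastn 2.17.0, and coordinates in the results are GRCh37, from the files. The members and gene lists were chosen with earlier results of these data known. The rule for named members took the highest 10, those called with a change of at least 1, up to 12 per direction of those at 1 FPKM in 1 group only, the 5 smallest changes, members and LINC genes next to the threshold, members renamed as small-protein genes, and coding neighbours. The neighbour pairs described and members given by change alone were chosen after their values were seen, and 1 gene is not reported here. Alternatives were other pseudocounts, filters, scaling, TPM, limma settings, a replicate block and each library left out.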

Additional observations from a re-analysis of the deposited data

How the results depend on the processing

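Of 57 tested members, 48 kept their call in each of 15 alternatives (35 of the 39 called), and no called change reversed. The sign changed in some alternative for 8 members that had not passed (LINC00094, LINC00116, LINC00338, LINC00342, LINC00493, LINC00624, LINC00680 and LINC00909), each with a change of at most 0.08 either way. The call of LINC00337 ended with no filter, under the replicate block, and without H1975_OR replicate 2 or 3 or H1975 replicate 1 or 3. That of LINC00941 ended with no filter, under median-of-ratios scaling, and without H1975_OR replicate 1 or 2 or H1975 replicate 3. LINC01155 lost its call with no filter, and LINC00623 without H1975_OR replicate 1 or H1975 replicate 3. A call was gained by LINC01006 (scaling, block, without H1975_OR replicate 3), LINC00313 (block), LINC01128 and LINC00663 (without H1975 replicate 1) and LINC00674 (scaling, without H1975_OR replicate 2). With members at 2 FPKM or more, 11 in place of 20 were in H1975_OR only, and these were not all among the 20. Many of the 20 did not reach that level. LINC00505, LINC00938, LINC01060 and LINC01155, at 1 FPKM or more in both groups, reached 2 FPKM in H1975_OR only. Deviations from the group means correlated at -0.12, 0.08 and 0.09 between same-numbered replicates, and at -0.16 to 0.08 between the others. These values show no shift shared by number. They cannot show whether same-numbered libraries were grown or prepared together, and the labels state no pairing. With the replicate block, 40 members were called in place of 39, 22 higher and 18 lower, and 28 in place of 29 other long noncoding RNAs. With 1 library left out, 36 to 40 members were called. Median-of-ratios scaling shifted the median change by -0.04. Low members lie near the threshold of 1 FPKM, and the p-values of members measure only the spread among libraries of 1 derivative and its parent.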
